A study of Mus musculus with 6 samples.

Results

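The SLAM family receptors and their adaptor were described here in leukaemia initiating cells (LICs), the fraction of leukaemia cells from which a leukaemia can be started again, of neonatal and adult mouse leukaemia. The 10 genes were chosen by name from the 23337 genes of the count table: the 9 receptor genes Slamf1, Slamf6, Slamf7, Slamf8, Slamf9, Cd48, Cd84, Ly9 and Cd244 on chromosome 1, and the adaptor gene Sh2d1a on chromosome X. All 10 were found, and 7 passed the filter on low counts. Gene-level read counts came from polyA-selected RNA of 3 neonatal libraries (replicates 4, 7 and 8) and 3 adult libraries (replicates 1, 2 and 4), all labelled as sorted LICs with blood stem and progenitor cells as the source. The labels give neonatal or adult as the age and name no strain, sex, leukaemia driver, treatment or number of animals per library. They do not say that replicates came from separate animals, so the p-values speak for the spread among these samples alone, and part of it may be technical.

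SLAM receptors are immunoglobulin-type surface proteins of blood cells. Most of them bind a copy of themselves on the neighbouring cell, whereas CD244 binds CD48, a protein that is held in the membrane by a lipid anchor and has no signalling tail. Tyrosine motifs in the tails of most of the other receptors recruit SAP, the product of Sh2d1a, or the related EAT-2 adaptors, which couple them to kinases such as FYN, and the same motifs can recruit the phosphatases SHP-1, SHP-2 and SHIP-1 instead. In the mouse bone marrow the family is used to sort stem cells: CD150, the product of Slamf1, marks stem cells, and CD48 and CD244 appear on the progenitors that arise from them.

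The neonatal libraries held 3932833, 64712241 and 66132051 counts in replicates 4, 7 and 8, and the adult libraries held 60113466, 65183188 and 62308393 counts in replicates 1, 2 and 4. Neonatal replicate 4 was the shallow library, and the mean total of the others was 16.2 times its own. A count of 3, used here as the floor for a gene with no count, was 0.897 CPM in it (counts scaled to TMM-corrected library size) and 0.0425 to 0.0503 CPM in the others. It also had a different balance of short and long genes. Over genes of at least 5 CPM, its median log2 ratio to the mean of neonatal replicates 7 and 8 was 1.05 for the 1771 genes with under 1.5 kb of exons and -0.81 for the 2770 genes with over 4 kb. The same ratio for adult replicates 1, 2 and 4 against the other adult libraries lay between -0.16 and 0.11 in all length classes. Xist reached 185.9, 51.7 and 58.0 CPM in neonatal replicates 4, 7 and 8, against 0.610 to 0.919 CPM in adult libraries. Eif2s3y, which lies on chromosome Y, had no counts in the neonatal libraries and 125 to 155 CPM in the adult libraries, so age group and sex-linked RNA cannot be told apart.

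Markers checked the labelled cell type and the cells a sort could carry along. Of the 13 listed genes of blood stem and progenitor cells 12 were found by symbol, and their summed level was 3421 to 3636 CPM in neonatal libraries and 2892 to 12486 CPM in adult libraries. The sums hid members that separated the groups, named here after their values were seen. Flt3, a receptor of early progenitors, had 256, 568 and 1231 CPM in neonatal replicates 4, 7 and 8, against 6.59, 19.4 and 4.58 CPM in adult replicates 1, 2 and 4 (log2 fold change 6.07, edgeR adjusted p = 0.133, and 0.0348 without neonatal replicate 4). Cd34, another surface marker of progenitors, had 396 to 662 CPM in neonatal libraries and 8.16 to 105 CPM in adult libraries. Kit, the receptor for stem cell factor, was called only without neonatal replicate 4 (log2 fold change 1.75, edgeR adjusted p = 0.0361). Most of the highest adult sum was Mpo, a gene of granule-forming progenitors, at 10368 CPM in adult replicate 4. Myb, a factor that progenitors need, was at 683 to 910 CPM in neonatal libraries and 813 to 1400 CPM in adult libraries. Procr, a marker of stem cells, had at most 0.142 CPM in neonatal libraries and no counts in adult libraries. T cell markers (12 of 12 found) summed to 6.52 to 12.8 CPM in neonatal libraries and 4.02 to 16.7 CPM in adult libraries, with Cd3e, Cd3g and Cd4 at 0 counts in all 6. Natural killer cell markers (11 of 11) summed to 41.1 to 291 and 47.1 to 115 CPM in neonatal libraries and adult libraries, nearly all of it Nkg7, with Ncr1, Gzma, Gzmb, Il2rb and Klre1 at 0 counts. B cell markers (8 of 8) summed to 72.1 to 147 and 30.0 to 70.2 CPM in neonatal libraries and adult libraries, nearly all of it Cd79b, with Ms4a1 and Pax5 at 0 counts. Neutrophil markers (9 of 10) summed to 27.9 to 155 CPM in neonatal libraries and 1757 to 14328 CPM in adult libraries, without overlap. The B cell and dendritic cell sums were higher and the erythroid sum lower in neonatal libraries, also without overlap. Of the listed B cell genes Cd79b was higher and Blnk lower in neonatal libraries without overlap, and of the T cell genes Tcf7 was lower. Macrophage markers (10 of 10) summed to 302 to 564 and 227 to 806 CPM, dendritic cell markers (8 of 8) to 39.6 to 54.1 and 29.3 to 38.2 CPM, and plasma cell markers (5 of 6) to 197 to 405 and 319 to 455 CPM in neonatal libraries and adult libraries. Mast cell and basophil markers (8 of 8) summed to 103.6 to 155 and 30.8 to 113 CPM, megakaryocyte markers (7 of 7) to 1.20 to 48.8 and 1.20 to 15.2 CPM, and erythroid markers (8 of 9) to 1.53 to 2.69 and 2.84 to 4.19 CPM in neonatal libraries and adult libraries.

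Levels within the family were compared per kilobase of exon (RPKM). Cd48 was the most abundant receptor RNA in each of the 6 libraries, at 200 ± 152 RPKM in neonatal and 84.2 ± 26.3 RPKM in adult LICs (SD, n = 3 each). It was followed by Cd244, at 16.9 ± 3.49 RPKM in neonatal and 10.9 ± 6.86 RPKM in adult LICs, Ly9, at 14.7 ± 8.97 and 9.53 ± 4.65 RPKM, and Cd84, at 7.93 ± 1.13 and 8.22 ± 5.08 RPKM (SD, n = 3 each). In each group the values of Cd244 overlapped those of Ly9 and the values of Ly9 those of Cd84, while in neonatal LICs every Cd244 value was above every Cd84 value. The lowest Cd48 value lay above the highest value of any other receptor. By the mean of the 6 libraries Slamf9 and Slamf6 came next. The neonatal mean of Slamf6 was above that of Slamf9 through replicate 8 alone, and in every other library Slamf6 was below Slamf9. In adult LICs the mean of Slamf6 was also below those of Slamf7 (0.166 RPKM) and Slamf8 (0.0437 RPKM). Slamf9 was at 0.677 ± 0.414 RPKM in neonatal and 2.43 ± 0.785 RPKM in adult LICs, and Slamf6 at 1.05 ± 0.810 and 0.00838 ± 0.00923 RPKM (SD, n = 3 each). Slamf7, Slamf8 and Slamf1 were at or near the floor in most libraries.

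**Figure D1:**
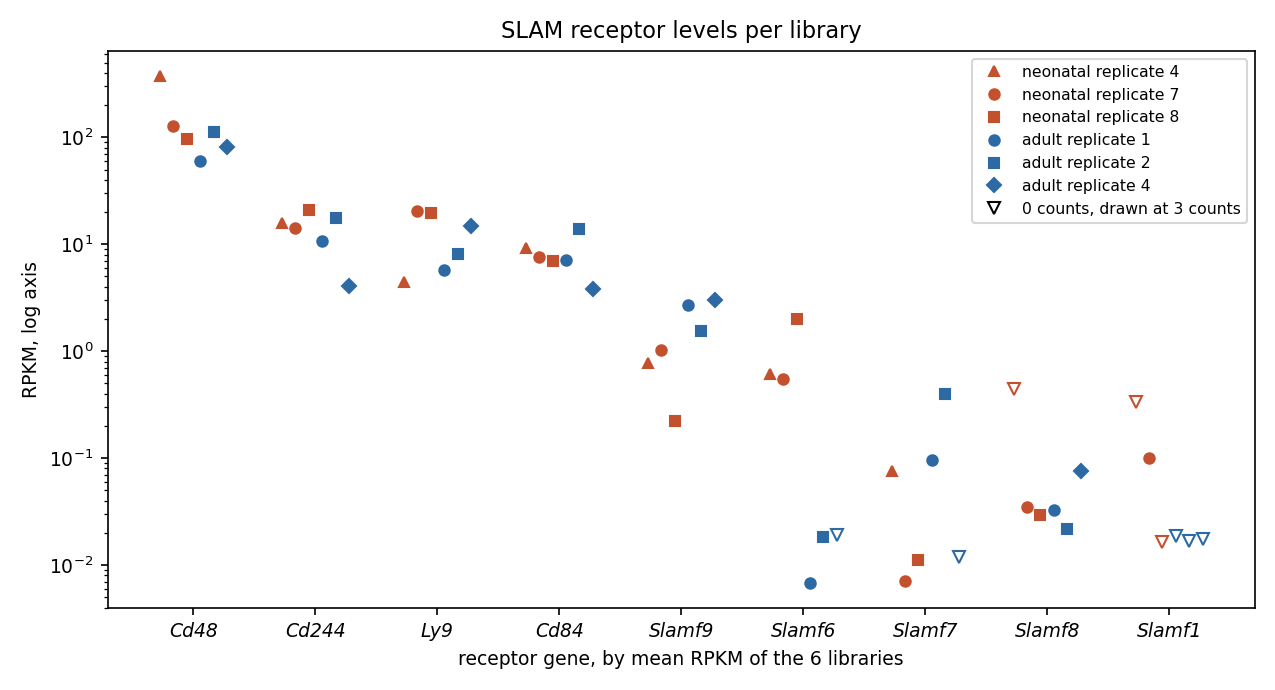
RPKM of the 9 SLAM receptor genes on a log axis, with neonatal libraries in red to the left of adult libraries in blue and open triangles for libraries with 0 counts, drawn at the value of 3 counts. Cd48 stands above all others at 59.6 to 374 RPKM, and Slamf6 is the receptor with the widest gap between the groups.

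Among the 13272 genes kept by the filter, Cd48 ranked 552nd by mean RPKM in neonatal LICs and 1237th in adult LICs, above 95.8% and 90.7% of them. Its neonatal mean was raised by replicate 4, at 374 RPKM against 128 and 97.5 RPKM in neonatal replicates 7 and 8. The adult libraries had 59.6 to 112 RPKM, so the 2 ranks do not show a difference between the groups. Cd244, Ly9 and Cd84 ranked in the middle, above 64.1%, 61.1% and 49.7% of genes in neonatal LICs and above 56.2%, 53.4% and 50.6% in adult LICs. Slamf6 ranked above 21.9% of the kept genes in neonatal LICs and above 0.219% in adult LICs.

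For the 3 receptors that the results turn on, the RefSeq promoter window (build GRCm38.p6, plus strand, 5′ to 3′) is given here: Slamf6 and Slamf9, whose groups did not overlap, and Cd48, the most abundant. The windows are chr1:171917212-171917511, chr1:172475110-172475409 and chr1:171681742-171682041. Capitals mark matches on either strand to CACGTG (an E-box), TGACTCA (the AP-1 site), GAGGAAGT (an ETS site of the PU.1 kind), TGTGGT (the RUNX core) or AGATAA (the site of GATA factors).
Slamf6: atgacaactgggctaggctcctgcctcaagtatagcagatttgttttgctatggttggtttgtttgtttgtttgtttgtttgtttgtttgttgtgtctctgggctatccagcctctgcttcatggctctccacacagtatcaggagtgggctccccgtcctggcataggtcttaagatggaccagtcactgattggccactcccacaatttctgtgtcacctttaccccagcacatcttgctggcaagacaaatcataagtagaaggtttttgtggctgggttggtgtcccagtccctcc
Slamf9: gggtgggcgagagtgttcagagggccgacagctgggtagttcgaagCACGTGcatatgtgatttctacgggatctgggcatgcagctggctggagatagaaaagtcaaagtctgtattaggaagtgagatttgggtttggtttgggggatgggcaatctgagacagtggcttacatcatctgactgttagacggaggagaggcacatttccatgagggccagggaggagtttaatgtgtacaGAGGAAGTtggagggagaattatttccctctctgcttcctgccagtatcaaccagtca
Cd48: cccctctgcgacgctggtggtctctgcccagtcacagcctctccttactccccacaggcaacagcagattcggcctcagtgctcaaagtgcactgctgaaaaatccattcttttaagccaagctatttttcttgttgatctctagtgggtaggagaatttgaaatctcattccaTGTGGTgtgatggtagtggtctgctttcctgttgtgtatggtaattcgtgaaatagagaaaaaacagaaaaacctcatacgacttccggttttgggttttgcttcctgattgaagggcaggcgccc
The 8 receptor genes with an entry were all but Ly9, with Cd244 entered as Cd244a, and Sh2d1a had none. CACGTG occurred in the windows of Slamf8, Slamf9 and Cd244 (3 of 8, against 7.15% of all 32851 windows of the table), and TGACTCA in those of Slamf7, Slamf8, Cd84 and Cd244 (4 of 8, against 5.20%). GAGGAAGT occurred in Slamf9 (3.20% of all windows), TGTGGT in Cd48 and Cd84 (16.8%), and AGATAA in none of the 8 (11.2%). These 5 motifs were picked from 11 searched after their matches were seen, they do not overlap one another in the 3 windows printed, and a match describes letters and not a binding site. The start used by RefSeq lay 75 bases from that of the count table's gene model for Slamf6, 63 bases for Cd48 and 0 for Slamf9. The starts of the counted gene models of Slamf6 and Cd48 thus lie just past the last base of their printed windows. For Slamf7, one of the genes with a TGACTCA match, the RefSeq start lay 4038 bases away. That window is not at the start of the counted gene model.

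The comparison of neonatal with adult LICs asked how the family differs with the age of origin of the leukaemia. Of the 7 members kept, 0 passed edgeR's quasi-likelihood test on 6 libraries (Benjamini-Hochberg adjusted p under 0.05), beside 0.0527% of all 13272 genes called. At an unadjusted p under 0.05 there were 2 of 7, Slamf6 and Slamf9, beside 11.9% of all genes. DESeq2 called 1 (Slamf6), beside 5.72% of all genes, and limma voom 0, beside 0.0527%. Without neonatal replicate 4 Slamf6 passed (1 of 7 kept), beside 5.98% of 13856 genes. Of the 7, 4 had a positive log2 fold change, neonatal over adult, and 3 a negative one, with a median of 0.64 beside 0.05 over all genes kept. Slamf6 passed the filter only through the neonatal libraries, so its place in these counts of members says little.

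**Figure D2:**
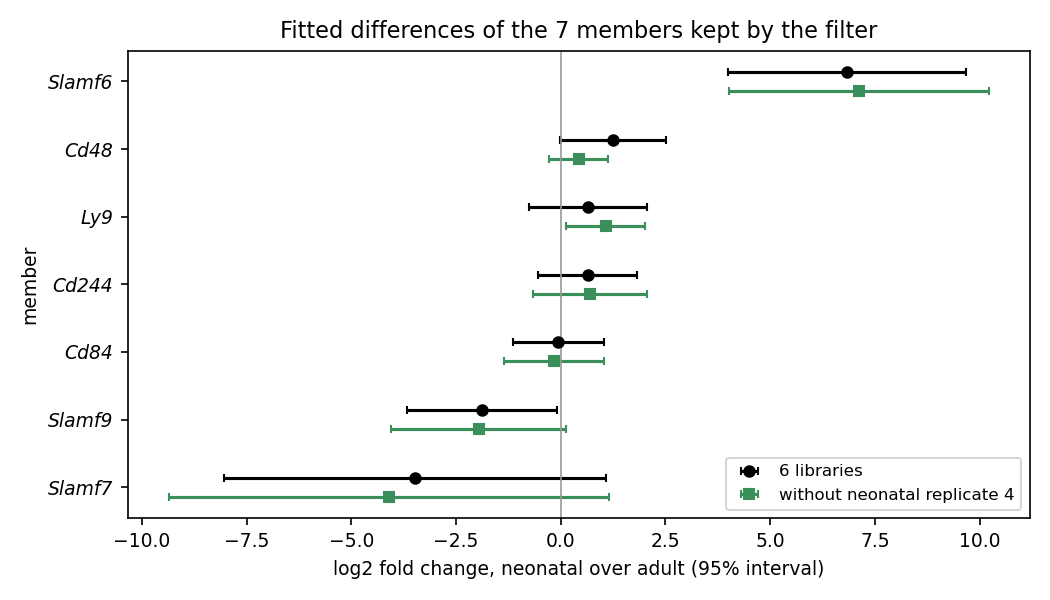
Log2 fold changes, neonatal over adult, of the 7 members kept by the filter, with 95% intervals from edgeR, for 6 libraries (black circles) and without neonatal replicate 4 (green squares). Only the intervals of Slamf6 lie wholly above 0 in both fits, at 3.99 to 9.68 and 4.0 to 10.2.

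Slamf6, which encodes the self-binding receptor Ly108 known from T, B and natural killer cells, was the member with the widest difference. It lies on chromosome 1 at 171917537 to 171943868 (mm10, plus strand). It had 5, 95 and 327 counts in neonatal replicates 4, 7 and 8, against 1, 3 and 0 counts in adult replicates 1, 2 and 4. On the CPM scale these were 1.49, 1.35 and 4.85 CPM in neonatal LICs and 0.0168, 0.0447 and 0 CPM in adult LICs. Every neonatal library was above every adult library, and every adult library was at or under the floor of 3 counts. The log2 fold change was 6.83 ± 1.23 (SE, edgeR adjusted p = 0.140), and without neonatal replicate 4 it was 7.11 ± 1.30 (SE, edgeR adjusted p = 0.0415). With 427 counts in the neonatal and 4 in the adult libraries, the ratio of pooled CPM was 144, with an exact 95% counting interval of 55.9 to 532 that leaves the spread between libraries out. Of the neonatal counts 327 came from replicate 8, and the ratio was 64.6 without that library and 64.6 to 374 over the libraries left out in turn. The fitted log2 fold change was 5.94 without neonatal replicate 8 and 7.96 without adult replicate 2, the lowest and highest values with 1 library left out. The 5 counts of neonatal replicate 4 allowed 0.485 to 3.49 CPM, a range that also lies above the adult values. Of the 19 alternatives that kept the gene 4 called it, and adjusted p-values (edgeR, limma, DESeq2) spanned 1.18e-06 to 0.389. With the libraries thinned to the depth of the shallowest, Slamf6 did not pass the filter, so it was not compared at equal depth. In bulk RNA, more cells with Slamf6 and more Slamf6 RNA per cell cannot be told apart. The T cell genes Cd3e, Cd3g and Cd4 and the B cell genes Ms4a1 and Pax5 had 0 counts in all 6 libraries. Cd79b, like Slamf6, was higher in every neonatal library, at 70.7 to 146 CPM against 28.3 to 68.5 CPM in adult LICs. So were Flt3 and Cd34. The B cell gene Blnk and the T cell gene Tcf7 went the other way, with 0 counts in the neonatal libraries. In adult libraries they had 0.491 to 0.857 CPM and 0.774 to 1.51 CPM. Both passed the filter only through the adult libraries. Without neonatal replicate 4 both were called (edgeR adjusted p = 0.0499 and 0.0420). The part of these genes in the Slamf6 values was not tested.

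Slamf9, a receptor with a short tail that lacks the tyrosine motifs and is known from macrophages and dendritic cells, was lower in each neonatal library. It lies on chromosome 1 at 172475360 to 172478409 (plus strand). Its counts were 3, 83 and 17 in neonatal replicates 4, 7 and 8 and 186, 119 and 223 in adult replicates 1, 2 and 4. This gave 0.897, 1.18 and 0.252 CPM in neonatal LICs, against 3.12, 1.77 and 3.48 CPM in adult LICs. The groups did not overlap, but the 3 counts of neonatal replicate 4 allow up to 2.62 CPM, which reaches into the adult range. Its log2 fold change of -1.88 ± 0.78 (SE) did not pass over all genes (edgeR adjusted p = 0.397, and 0.191 without neonatal replicate 4), with a 95% interval of -3.68 to -0.08. It was negative under all 19 alternatives that kept the gene, at -2.55 to -1.39. The neutrophil marker sum was also lower in the neonatal libraries, without overlap. The dendritic cell sum went the other way, also without overlap, and the macrophage sum overlapped between the groups. Of the 10 macrophage markers, 4 were lower in neonatal libraries without overlap (C1qa, C1qb, C1qc and Mertk, with log2 fold changes of -4.19, -3.20, -3.36 and -4.84) and 1 was higher (Cd68, at 1.56), and none of them passed on 6 libraries (edgeR adjusted p = 0.140 to 0.429). Cd68 passed without neonatal replicate 4 (edgeR adjusted p = 0.0360). Their part in the Slamf9 values was not tested.

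Of the 7 members kept, Slamf6 (higher) and Slamf9 (lower) were those whose libraries did not overlap between the groups. Slamf6 was kept only through its neonatal counts, so its place among them says little. Of all 13272 genes kept, 7.67% were higher and 12.0% lower in neonatal libraries in this way. Per kilobase, the ratio of Slamf6 to Slamf9 was 0.781, 0.536 and 9.02 in neonatal replicates 4, 7 and 8, against 0.00252, 0.0118 and 0 in adult replicates 1, 2 and 4. This ratio is taken within a library and does not depend on the scaling between libraries. In neonatal replicate 8 Slamf6 stood above Slamf9, and in the other 5 libraries below it.

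**Figure D3:**
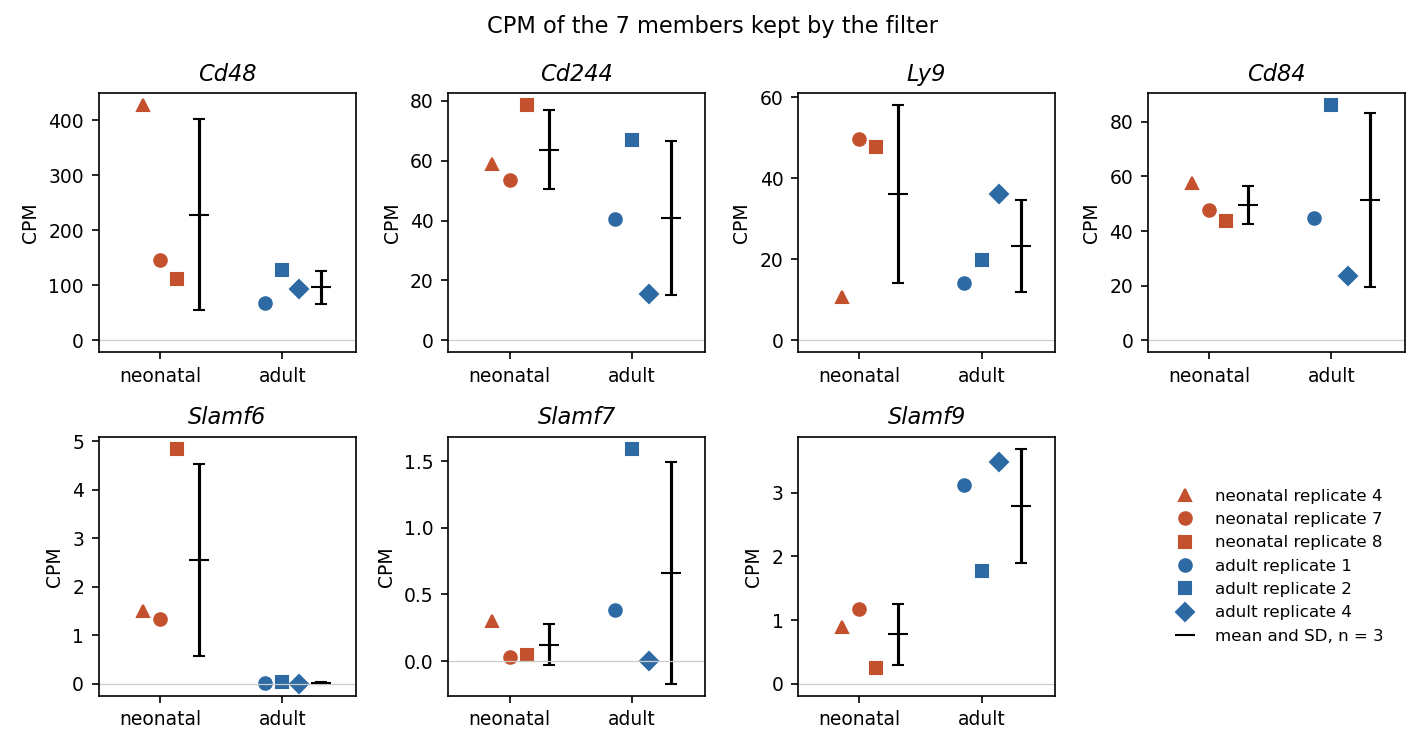
CPM of the 7 members kept by the filter, each on its own linear axis, with neonatal libraries in red to the left of adult libraries in blue and the mean and SD of 3 libraries beside each group. Slamf6 and Slamf9 separate the groups, and the high Cd48 and low Ly9 points of neonatal replicate 4 (triangles) stand apart from the other neonatal libraries.

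Cd48, the ligand of CD244, lies on chromosome 1 at 171682055 to 171705257 (plus strand). It had 427, 146 and 111 CPM in neonatal replicates 4, 7 and 8, against 68.1, 128 and 92.5 CPM in adult replicates 1, 2 and 4. Adult replicate 2 lay above neonatal replicate 8, so the groups overlapped, and neonatal replicate 4 was by far the highest library. The log2 fold change was 1.24 ± 0.55 (SE, edgeR adjusted p = 0.428) with a 95% interval of -0.02 to 2.51. Without neonatal replicate 4 it was 0.43 ± 0.29 (SE, edgeR adjusted p = 0.366). Cd48 has 1142 bases of exons and falls in the class of short genes that were high in that library, and with each library's trend on exon length removed its log2 fold change was 0.93 ± 0.40 (SE, edgeR adjusted p = 0.415).

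Cd244 (2B4), the receptor for CD48, lies on chromosome 1 at 171559193 to 171585316 (plus strand). It had 58.9, 53.5 and 78.5 CPM in neonatal replicates 4, 7 and 8, against 40.4, 66.9 and 15.3 CPM in adult replicates 1, 2 and 4. The neonatal libraries lay close together, while the adult libraries spread widely and adult replicate 2 reached into the neonatal range. The log2 fold change was 0.64 ± 0.51 (SE, edgeR adjusted p = 0.700), with a 95% interval of -0.55 to 1.83 and values of 0.25 to 1.19 over the libraries left out in turn. Receptor and ligand RNA were thus both present in every library. The ratio of Cd48 to Cd244 RPKM was 23.9, 8.99 and 4.67 in neonatal replicates 4, 7 and 8 and 5.55, 6.29 and 19.9 in adult replicates 1, 2 and 4, and the groups overlapped.

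Ly9 (CD229), a self-binding receptor of lymphocytes that is also used to divide progenitors in the mouse bone marrow, lies on chromosome 1 at 171588613 to 171607360 (minus strand). It had 10.8, 49.8 and 47.7 CPM in neonatal replicates 4, 7 and 8, against 14.2, 19.7 and 36.1 CPM in adult replicates 1, 2 and 4. Neonatal replicates 7 and 8 were above all adult libraries, and neonatal replicate 4 was below them. Its log2 fold change was 0.64 ± 0.61 (SE, edgeR adjusted p = 0.751). Without neonatal replicate 4 it was 1.07 ± 0.39 (SE, edgeR adjusted p = 0.132), with a 95% interval of 0.13 to 2.02, and it was positive under all 20 alternatives. The ratio of Cd48 to Ly9 RPKM was 85.2 in neonatal replicate 4, 6.30 and 5.0 in neonatal replicates 7 and 8, and 5.50 to 13.9 in adult libraries.

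Cd84, a self-binding receptor of myeloid cells, platelets and lymphocytes, lies on chromosome 1 at 171839697 to 171890718 (plus strand). It had 57.4, 47.7 and 43.7 CPM in neonatal replicates 4, 7 and 8, against 44.6, 86.0 and 23.6 CPM in adult replicates 1, 2 and 4. All 3 neonatal values lay inside the adult range, and adult replicate 2 was the highest. Its log2 fold change was -0.05 ± 0.47 (SE, edgeR adjusted p = 0.979), with a 95% interval of -1.14 to 1.03, and its sign turned under 4 of 20 alternatives. Per kilobase, the ratio of Cd84 to Cd244 was 0.586, 0.535 and 0.335 in neonatal replicates 4, 7 and 8, against 0.664, 0.773 and 0.926 in adult replicates 1, 2 and 4. Within each library Cd84 was thus the lower of the pair, and relative to Cd244 it was lower in every neonatal library than in every adult library. This ratio was chosen after its values were seen and was not tested.

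The remaining receptors were scarce. Slamf1, the CD150 gene on chromosome 1 at 171767132 to 171801184 (plus strand), had 19 counts in neonatal replicate 7 and 0 counts in the other 5 libraries. Its pooled neonatal level was 8.55 times the floor of 3 counts over the adult libraries. This value rests on neonatal replicate 7 alone. It leaves out the counting error of the neonatal level, so it is not a lower bound for the group. Neonatal replicate 4 could hold up to 0.897 CPM at a count of 0, above the 0.269 CPM of neonatal replicate 7, so its lack of counts was not informative at this depth.

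Slamf7 (chromosome 1, 171632403 to 171653037, minus strand), the receptor CRACC of natural killer cells, plasma cells and activated macrophages, had 1, 2 and 3 counts in neonatal replicates 4, 7 and 8, against 23, 107 and 0 counts in adult replicates 1, 2 and 4. Adult replicate 2 carried most of the adult counts, and adult replicate 4 had none, so the groups overlapped. With -3.47 ± 1.97 on the log2 scale (SE, edgeR adjusted p = 0.549), the fitted fold change had a 95% interval of -8.03 to 1.09. It was -1.62 without adult replicate 2, -4.10 to -1.62 over the libraries left out in turn, and -1.23 with limma voom. In adult replicate 2 the T cell marker sum (16.7 CPM) and the macrophage marker sum (806 CPM) were the highest of the 6 libraries. The natural killer cell sum there (115 CPM) was the highest and the plasma cell sum (319 CPM) the lowest of the adult libraries. Their part in the Slamf7 values was not tested.

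Slamf8 (chromosome 1, 172581377 to 172590568, minus strand), a short-tailed receptor of macrophages, had 0, 5 and 4 counts in neonatal replicates 4, 7 and 8, against 4, 3 and 10 counts in adult replicates 1, 2 and 4. The ratio of pooled CPM was 0.715 with an exact 95% counting interval of 0.281 to 1.70, so no difference was detectable at this depth. Slamf1 and Slamf8 were too low for the filter.

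Sh2d1a (chromosome X, 42502608 to 42522075, plus strand), which encodes the adaptor SAP and is mutated in human X-linked lymphoproliferative disease, had 0 counts in all 6 libraries. A count of 0 allows up to 0.0212 CPM over the neonatal and 0.0157 CPM over the adult libraries. No difference between the groups could therefore be stated.

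The make-up of the family was set by Cd48. It held 92.4%, 74.5% and 66.3% of the summed RPKM of the 9 receptors in neonatal replicates 4, 7 and 8, against 69.2%, 72.9% and 75.9% in adult replicates 1, 2 and 4. The sum itself was 405, 172 and 147 RPKM in neonatal replicates 4, 7 and 8 and 86.1, 154 and 107 RPKM in adult replicates 1, 2 and 4. Neonatal replicate 8 lay below adult replicate 2, so the sums overlapped. Slamf9 held 0.313% ± 0.247 of the sum in neonatal and 2.34% ± 1.16 in adult LICs, and Slamf6 held 0.607% ± 0.648 and 0.00662% ± 0.00606 (SD, n = 3 each).

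**Figure D4:**
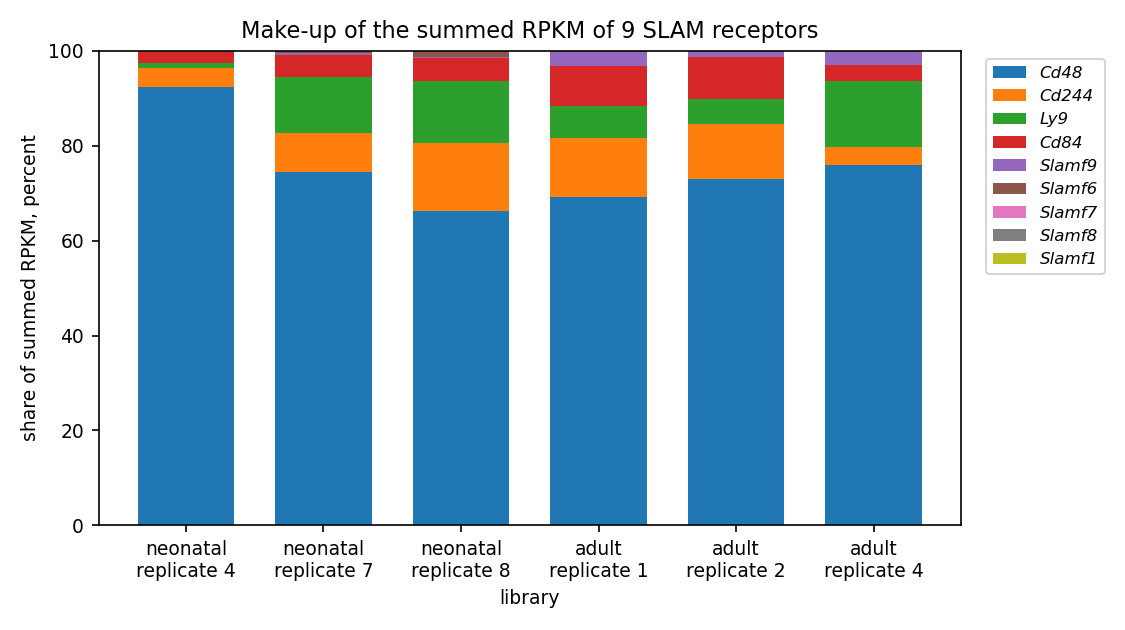
Share of each receptor in the summed RPKM of the 9 SLAM receptors, in percent, with the 3 neonatal libraries to the left of the 3 adult libraries. Cd48 fills 66.3% to 92.4% of every bar, and the Ly9 share of neonatal replicate 4 is the smallest at 1.08%.

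SLAM partners were read from a list of 31 genes, of which all were in the table and 28 passed the filter. On 6 libraries 0 of 28 passed edgeR's quasi-likelihood test (2 at an unadjusted p under 0.05, beside 11.9% of all genes), with a median log2 fold change of 0.02. Limma voom called 0 of 28 and DESeq2 1 of 28, the kinase gene Fgr (lower), beside 0.0527% and 5.72% of all genes. Without neonatal replicate 4, 2 of 28 passed, both higher in neonatal LICs, beside the 3.72% of 13856 genes that were called higher. They were Plcg2, a phospholipase gene, and Inpp5d, which encodes SHIP-1. Plcg2 had 33.8, 229 and 279 CPM in neonatal replicates 4, 7 and 8, against 107 to 139.5 CPM in adult libraries (log2 fold change 1.06 ± 0.19 without neonatal replicate 4, SE, edgeR adjusted p = 0.0416). Inpp5d had 42.1, 215 and 222 CPM in neonatal replicates 4, 7 and 8, against 115 to 141 CPM in adult libraries (0.79 ± 0.17 without neonatal replicate 4, SE, edgeR adjusted p = 0.0499). In both, neonatal replicate 4 lay below every adult library.

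The EAT-2 adaptor gene Sh2d1b1 was expressed where Sh2d1a was not. It had 55.6, 15.1 and 16.2 CPM in neonatal replicates 4, 7 and 8, against 57.3, 20.6 and 24.2 CPM in adult replicates 1, 2 and 4. The groups overlapped through neonatal replicate 4 alone (log2 fold change -0.26 ± 0.63, SE, edgeR adjusted p = 0.924). Neonatal replicates 7 and 8 lay below every adult library. Without neonatal replicate 4 the log2 fold change of Sh2d1b1 was -1.11 ± 0.48 (SE, edgeR adjusted p = 0.179). Its near copy Sh2d1b2 was at 0.519 to 1.49 CPM in neonatal libraries and 0.610 to 1.58 CPM in adult LICs, and reads of the pair are hard to tell apart. Fyn, the kinase gene that SAP links to the receptors, was low, at 2.0 ± 1.68 CPM in neonatal libraries and 1.01 ± 0.708 CPM in adult libraries (SD, n = 3 each). The phosphatase genes Ptpn6 (SHP-1) and Ptpn11 (SHP-2) were at 484 ± 204 and 55.9 ± 22.0 CPM in neonatal LICs and at 421 ± 52.4 and 47.2 ± 8.05 CPM in the adult group (SD, n = 3 each), and their groups overlapped. Cd2, whose protein is another receptor for CD48, had 1 count in the neonatal and 23 in the adult libraries, all of these in adult replicate 4.

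The chromosome 1 members span 1031 kb of the mm10 build, and 30 other genes of the table lay between them or within 200 kb, none of them overlapping a member. Of these, 22 passed the filter and 0 were called by edgeR's quasi-likelihood test on 6 libraries. Without neonatal replicate 4, 3 of 22 were called, all higher in neonatal LICs, beside the 3.72% of 13856 genes that were called higher. These were Ncstn, Pea15a and Igsf8, chosen after their values were seen, with log2 fold changes of 1.34, 1.95 and 2.74 (edgeR adjusted p = 0.0360, 0.0401 and 0.0320). Next to Slamf6, at 60503 bases, lies Vangl2, a planar cell polarity gene. It had 2.09, 2.71 and 4.44 CPM in neonatal replicates 4, 7 and 8, against 0, 0 and 0.156 CPM in adult replicates 1, 2 and 4, without overlap (log2 fold change 5.85 ± 1.5, SE, edgeR adjusted p = 0.181, and 0.0731 without neonatal replicate 4). Like Slamf6, Vangl2 passed the filter only through the neonatal libraries. Of the other next neighbours, Itln1, beside Cd244, and Vsig8, beside Slamf8, had no counts. Igsf9, beside Slamf9, had at most 0.358 CPM and Fcrl6, beside Slamf8, at most 0.357 CPM in any library. Pigm, on the other side of Slamf9 at 91261 bases, was not low, at 19.5 to 31.4 CPM, and its groups overlapped.

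**Figure D5:**
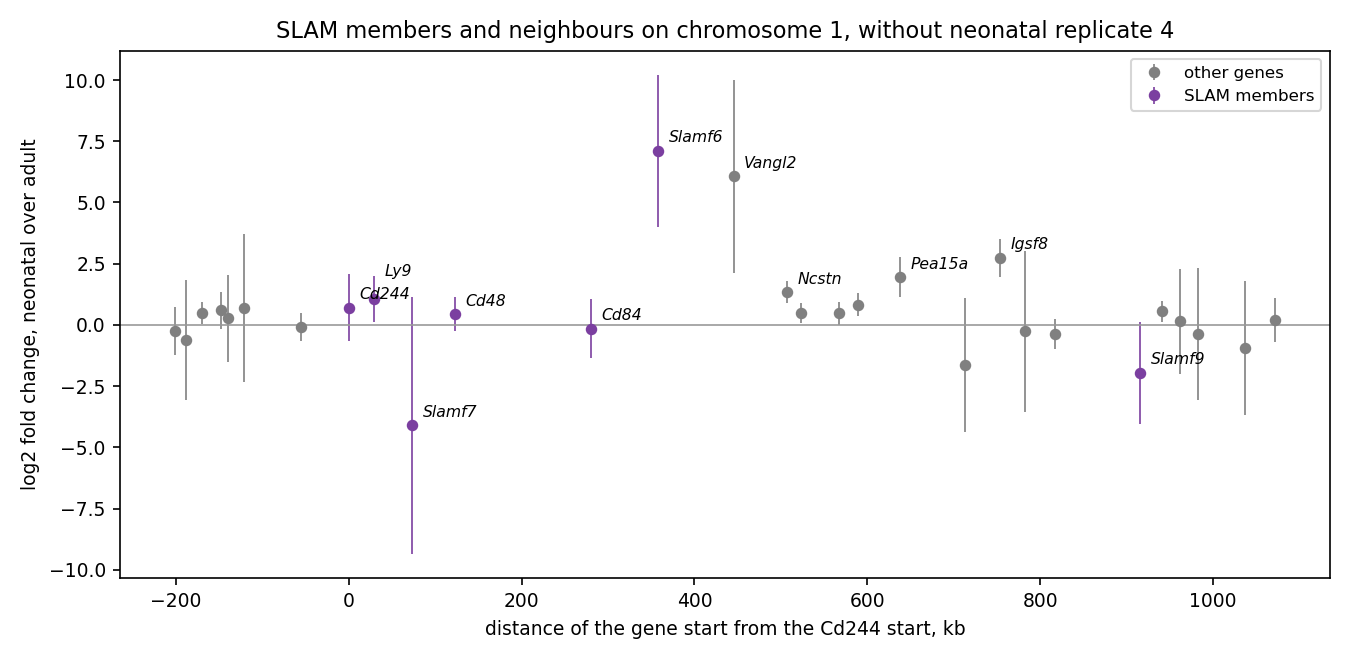
Log2 fold changes, neonatal over adult, without neonatal replicate 4, of the chromosome 1 members (purple) and their neighbours (grey) kept by the filter, against the distance of each gene's start from the start of Cd244 in kb, with 95% intervals. Slamf6 at 7.11 and Vangl2 at 6.06 stand highest, and the other members lie between -4.10 and 1.07.

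The genes whose log2 CPM followed the 3 most abundant members most closely over the 6 libraries, out of 13271 other genes kept, were found by Pearson's r as a description. For Cd48 they were Tifa, Ebp and Gla (r = 0.995, 0.993 and 0.992, n = 6), for Cd244 Susd3, AI504432 and C630004H02Rik (r = 0.987, 0.985 and 0.982, n = 6), and for Ly9 Tcof1, Bub1 and Ctdp1 (r = 0.996, 0.994 and 0.993, n = 6). Tifa was, like Cd48, highest in neonatal replicate 4, at 223 CPM against 74.5 and 68.1 CPM in neonatal replicates 7 and 8 and 38.6 to 65.7 CPM in adult libraries. Tcof1 was, like Ly9, lowest there, at 30.2 CPM against 133 and 134 CPM in neonatal replicates 7 and 8 and 41.0 to 96.0 CPM in adult libraries. Neonatal replicate 4, the shallow library, is among the 6 points of each correlation, and its part in them was not tested.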

How the data were processed

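RNA of 6 libraries was sequenced on an Illumina HiSeq instrument, single-end, after polyA selection and an unstranded library kit, per the labels' protocols. The authors deposited gene-level raw counts, obtained with featureCounts 1.5.1 on primary alignments and a UCSC mm10 gene annotation without a strand option, per the file headers. Trimmomatic, Bowtie, TopHat and DESeq2 are also named, without versions, in the submitters' processing notes.

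From the counts, edgeR 4.0.16 (R 4.3.3) gave filterByExpr (minimum count 10), TMM scaling, a robust quasi-likelihood fit of neonatal minus adult over the whole table and Benjamini-Hochberg adjusted p-values, called under 0.05. Each SE is the absolute log2 fold change over the square root of F, an approximate value. CPM used TMM-scaled library sizes, RPKM divided CPM by the exon length of the table, and log2 CPM used a prior count of 2. Counting intervals are exact Poisson intervals at 95% and, like the floor of 3 counts, cover counting error only. The members, gene lists and named genes (all members, the called and 7 fixed partners, next neighbours, the 3 closest genes of 3 members, leading markers) were chosen with earlier results of these data known. Alternatives were DESeq2 1.42.0, limma 3.58.1 voom, other edgeR tests, scalings and filters, thinning, and each library left out; removal of the exon length trend, and the pooled Slamf6 ratio with each library left out, were added after seeing the data. The fits were tested on simulated data.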

Additional observations from a re-analysis of the deposited data

How the results depend on the processing

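Without neonatal replicate 4 edgeR called 828 genes over all, against 7 on 6 libraries, and leaving out 1 library in turn gave 1 to 828 genes (1, 2 and 3 without adult replicates 1, 2 and 4, and 4 and 6 without neonatal replicates 7 and 8), 0 to 1 members and 0 to 2 partner genes. DESeq2 called 759 genes, 1 member and 1 partner gene, the edgeR likelihood ratio test 594 genes and 1 member, and voom with library quality weights 1056 genes and 1 member. That member was Slamf6 each time, a gene kept by the filter only through the neonatal libraries. With chromosomes X and Y left out edgeR called 0 genes (1527 at an unadjusted p under 0.05). The other alternatives called 5 to 8 genes over all and 0 members. The sign of Cd84 turned with limma voom (0.071), with the length trend removed (0.44), and without neonatal replicate 8 or adult replicate 2 (-0.40 to 0.54 over the libraries left out). When a library was left out, signs also turned for Sh2d1b1 (-1.11 to 0.39), Sh2d1b2 (-0.75 to 0.34), Ptpn6 (-0.049 to 0.52) and Ptpn11 (-0.10 to 0.48), none of which was called. The cause was not tested. No paired analysis was possible because the groups share only replicate number 4. The depth of neonatal replicate 4 limits what can be seen of Slamf1, Slamf8 and Slamf9 in that library.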
